A study of Mus musculus with 6 samples.

Results

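The Kruppel-like factor (KLF) genes Klf2, Klf3, Klf4, Klf5, Klf6, Klf7, Klf9, Klf10 and Klf13 were followed in stem cells of the hair follicle that had been sorted from mouse skin. The members were all features of the array whose annotation gives exactly 1 symbol and that symbol is 1 of these 9. Klf7 had 2 such features and the others 1 each, so 10 of 41345 features matched, and the brightest per gene over 6 arrays gave 9 of 22180 genes. The rule itself uses no difference between genotypes, though the members were listed with earlier results of these data known. Cells were collected at postnatal day 49 from wild-type (WT) mice, 3 arrays, and from K14-sPLA2-IIA transgenic (TG) mice, 3 arrays, and were sorted on CD34 and alpha6-integrin. TG animals carry secreted phospholipase A2 group IIA under a keratin 14 promoter, which is active in basal cells of the epidermis and in the outer root sheath, not in stem cells alone. The labels give no strain, sex or litter, and do not say whether the arrays of a genotype came from separate mice, so the p-values reflect the spread of these samples, which may be technical. The comparison asks how expression in the sorted cells differs with the transgene.

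KLF proteins are transcription factors that bind GC-rich and CACCC sequences through zinc fingers at their carboxy-terminal end, a design shared with the SP factors. The part outside the fingers differs between members and recruits activators or repressors, so members can act against each other at the same kind of site. In epidermis, Klf4 is known for its role in barrier formation by suprabasal cells and Klf5 for its place in proliferating epithelial cells. Several family members are switched on rapidly by serum, stress or tissue handling, and Klf9 answers to glucocorticoid and thyroid hormone.

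Values are those the authors deposited, on a log2 scale where a difference of 1 is a 2-fold change. The base was read from the values, so folds hold only if it is 2. Without a detection value no gene can be called absent, and levels of different genes are not set against each other because each has its own probes. The medians of the 6 arrays lay between 5.90 and 5.99. Pla2g2a, the mouse gene of the transgenic enzyme, read between 12.39 and 12.61 in TG and between 5.75 and 6.77 in WT. The arrays numbered 3 stood apart in both genotypes. The first principal component, which held 64.6% of the variance, placed WT array 3 at 50.2 and TG array 3 at 53.2. TG array 1 lay at -2.78 and the remaining arrays between -34.3 and -32.7, so no WT array was intermediate. Cd34 itself, used for the sort, read 13.07 and 12.42 on the arrays numbered 3. It read 11.57 on TG array 1 and from 9.65 to 9.89 on the others. The basal keratin gene Krt14 read between 13.80 and 14.24 on all arrays, and Cd3e, which marks T cells, between 7.87 and 11.37.

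Sequence upstream of the start sites is shown for Klf2, whose values did not overlap between genotypes, and for Klf4 and Klf6, which varied together across the arrays. Each is 150 bases before the start, 5′ to 3′ on the gene's strand, from RefSeq on GRCm38.p6. They lie at chr8:72318912-72319061 (+ strand), chr4:55532476-55532625 (- strand) and chr13:5861339-5861488 (+ strand). Capitals mark a CACCC box or a GC box of the letters GGGCGG on either strand, and the motif of MEF2 factors.
Klf2 promoter: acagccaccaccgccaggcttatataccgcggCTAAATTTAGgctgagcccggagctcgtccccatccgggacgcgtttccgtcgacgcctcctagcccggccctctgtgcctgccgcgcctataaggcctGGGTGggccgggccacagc
Klf4 promoter: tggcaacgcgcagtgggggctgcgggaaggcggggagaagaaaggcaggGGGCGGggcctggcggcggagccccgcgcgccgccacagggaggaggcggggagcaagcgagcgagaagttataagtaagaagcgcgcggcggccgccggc
Klf6 promoter: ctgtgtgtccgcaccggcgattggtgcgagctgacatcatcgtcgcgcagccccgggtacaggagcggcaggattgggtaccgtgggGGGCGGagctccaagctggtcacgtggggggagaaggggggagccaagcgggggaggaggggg
A RefSeq window was matched for 7 of the 9 members, Klf2, Klf3, Klf4, Klf6, Klf7, Klf9 and Klf13. Over the 250 bases before the start, CACCC on either strand, the box that KLF proteins themselves bind, was found in 52.0% of 32851 windows and in Klf2, Klf3, Klf7, Klf9 and Klf13. Klf3 held 5 matches and Klf7 held 3. The GC box GGGCGG, on either strand, was found in 32.7% of windows and in Klf2, Klf3, Klf4, Klf6, Klf7 and Klf13, with 6 matches in Klf3 and 4 in Klf4. The MEF2 motif, added to the search after the Klf2 sequence was seen, starts 118 bases before the Klf2 start and was found in 2.92% of windows and in no other member's. MEF2 factors, activated by the kinase ERK5, are known regulators of Klf2 in other cell types. TGACGT, the core of a cyclic AMP response element, was found in 6.47% of windows and in Klf9 and Klf13. The TATA box TATAAA was found in 12.4% of windows, a fixed serum response element in 0.061% and a fixed glucocorticoid response element in 0.040%, and none of them in the 7 members' windows, which says only that these letters are not there. A match is a description of these letters and no sign of binding. GC content was 71.2% in Klf2, 74.0% in Klf4 and 64.8% in Klf6.

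Klf2, known for its part in endothelial responses to flow and in T cell quiescence, was the 1 member whose genotypes did not overlap. In WT it read 6.67, 6.51 and 6.38 on arrays 1 to 3, and in TG 7.21, 7.27 and 7.00. Every TG array lay above every WT array, with a gap of 0.33 between the lowest TG and the highest WT value. The mean was 6.52 ± 0.14 in WT (SD, n = 3) and 7.16 ± 0.14 in TG (SD, n = 3). The difference was 0.64 ± 0.14 (SE), a 1.56-fold higher value in TG, with a 95% interval from 0.30 to 0.98. It did not pass the threshold of 0.05 in limma after Benjamini-Hochberg adjustment over 22180 genes (adjusted p = 0.99996, unadjusted p = 0.00319, rank 24 by p). The exact permutation test (two-sided) returned its smallest possible value for 3 against 3 arrays, p = 0.1. The TG minus WT difference was 0.55 for the arrays numbered 1, 0.76 for those numbered 2 and 0.62 for those numbered 3, so it was of like size on the arrays that stood apart. With arrays blocked by their number the standard error was 0.11 and the adjusted p 0.531 in limma, also short of the threshold.

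**Figure D1:**
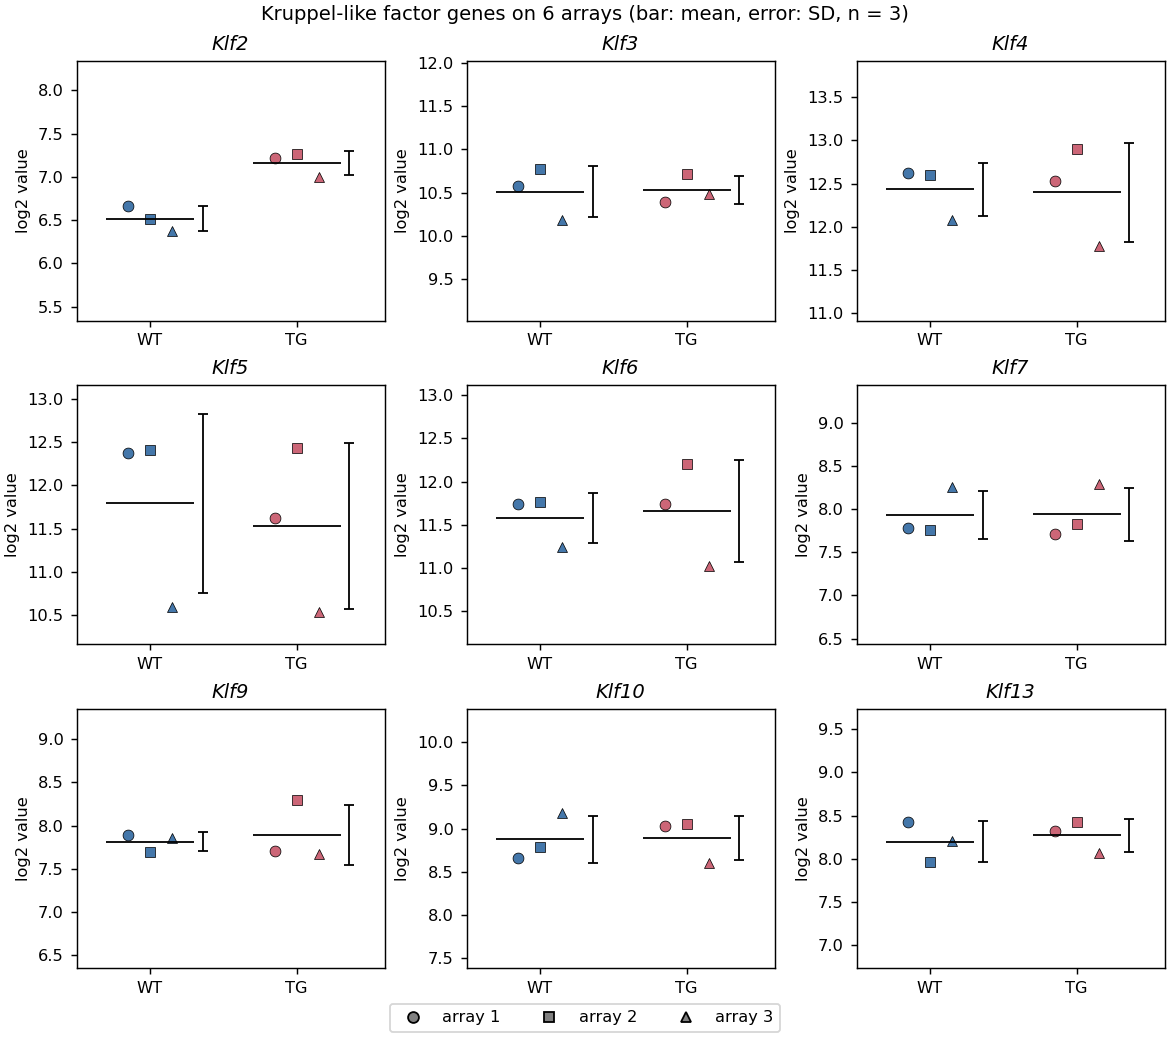
Deposited log2 value of each member (y axis, 3 log2 units in every panel) on the WT and TG arrays (x axis). Points are arrays, with shapes for the array number, horizontal bars are means and error bars are SDs over 3 arrays. The 3 TG arrays lie above the 3 WT arrays for Klf2. The triangles of Klf2, Klf4, Klf5 and Klf6 lie lowest within each genotype.

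None of the 9 members passed the adjusted threshold in either direction, where 1 gene of 22180 (0.00451%), Pla2g2a itself, did as higher and 0 as lower. Of the members, 1 had an unadjusted p under 0.05 in limma and was higher, against 1.93% of all genes. None of them was lower at that level, against 0.843%. All 3 TG arrays lay above all 3 WT arrays for 1 of 9 members and for 3.99% of all genes, and below for 0 of 9 against 3.21%. TG exceeded WT for each of the 3 array numbers in 1 of 9 members, against 14.6% of all genes. The median difference of the members was 0.019, beside -0.0075 over all genes, with 7 members above 0 and 2 below (Klf7 and Klf10 turned below 0 with quantile normalization), where 47.9% of all genes lay above 0.

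Klf4 and Klf6 differed little in mean between genotypes and a great deal between arrays. In WT, Klf4 read 12.62, 12.60 and 12.08 on arrays 1 to 3, and in TG 12.53, 12.90 and 11.77. Both genotypes had their lowest value on array 3, and the TG range enclosed the WT range. The mean was 12.43 ± 0.31 in WT and 12.40 ± 0.57 in TG (SD, n = 3 each), a difference of -0.035 ± 0.31 (SE) with a 95% interval from -0.78 to 0.71.

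Klf6, a widely expressed member induced by injury and growth factors, read 11.74, 11.76 and 11.25 in WT and 11.74, 12.20 and 11.03 in TG, in the same order of arrays. As for Klf4, TG array 2 was highest, TG array 3 lowest and WT array 3 next to the lowest. The mean was 11.58 ± 0.29 in WT and 11.66 ± 0.59 in TG (SD, n = 3 each), a difference of 0.075 ± 0.31 (SE) with a 95% interval from -0.67 to 0.82. After each gene was centred on its own mean, Klf4 and Klf6 differed by 0.063 (root mean square over 6 arrays), the smallest of the 36 pairs of members. The next pair, Klf9 and Klf13, differed by 0.16. Among 22179 other genes, Klf6 ranked 5 in closeness to Klf4.

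Klf5 had the widest spread of the 9 members. In WT it read 12.37, 12.41 and 10.60 on arrays 1 to 3, and in TG 11.63, 12.43 and 10.53. Array 3 was lowest in both genotypes and TG array 1 lay between it and the others. WT array 3 minus the mean of the other WT arrays was -1.79, a 3.46-fold lower value. TG array 3 minus the mean of the other TG arrays was -1.50, a 2.83-fold lower value. The mean was 11.79 ± 1.03 in WT and 11.53 ± 0.96 in TG (SD, n = 3 each). The difference of -0.26 ± 0.64 (SE) had a 95% interval from -1.78 to 1.26, so a change of more than 2-fold in either direction lay within it. Paired by number, the TG minus WT values were -0.74, 0.024 and -0.069, and the first of these made most of the mean difference.

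Klf7, studied mostly in neurons and fat cells, ran the other way across arrays. In WT it read 7.78, 7.76 and 8.25 on arrays 1 to 3, and in TG 7.71, 7.83 and 8.28. Array 3 was highest in both genotypes, by 0.49 in WT and 0.52 in TG over the mean of the other arrays. The difference between genotypes was 0.0097 ± 0.22 (SE), with a 95% interval from -0.50 to 0.52. Its dimmer feature read 4.65 on WT array 3 and 4.92 on TG array 3, beside genotype means of 4.78 and 4.88, and was not highest on both.

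The arrays numbered 3 lay below every other array for 3 of 9 members, Klf4, Klf5 and Klf6, beside 28.8% of all genes. They lay above every other array for 1 of 9, Klf7, beside 19.4% of all genes. Neither count is far from its background, as the arrays numbered 3 differed from the rest over much of the table.

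**Figure D2:**
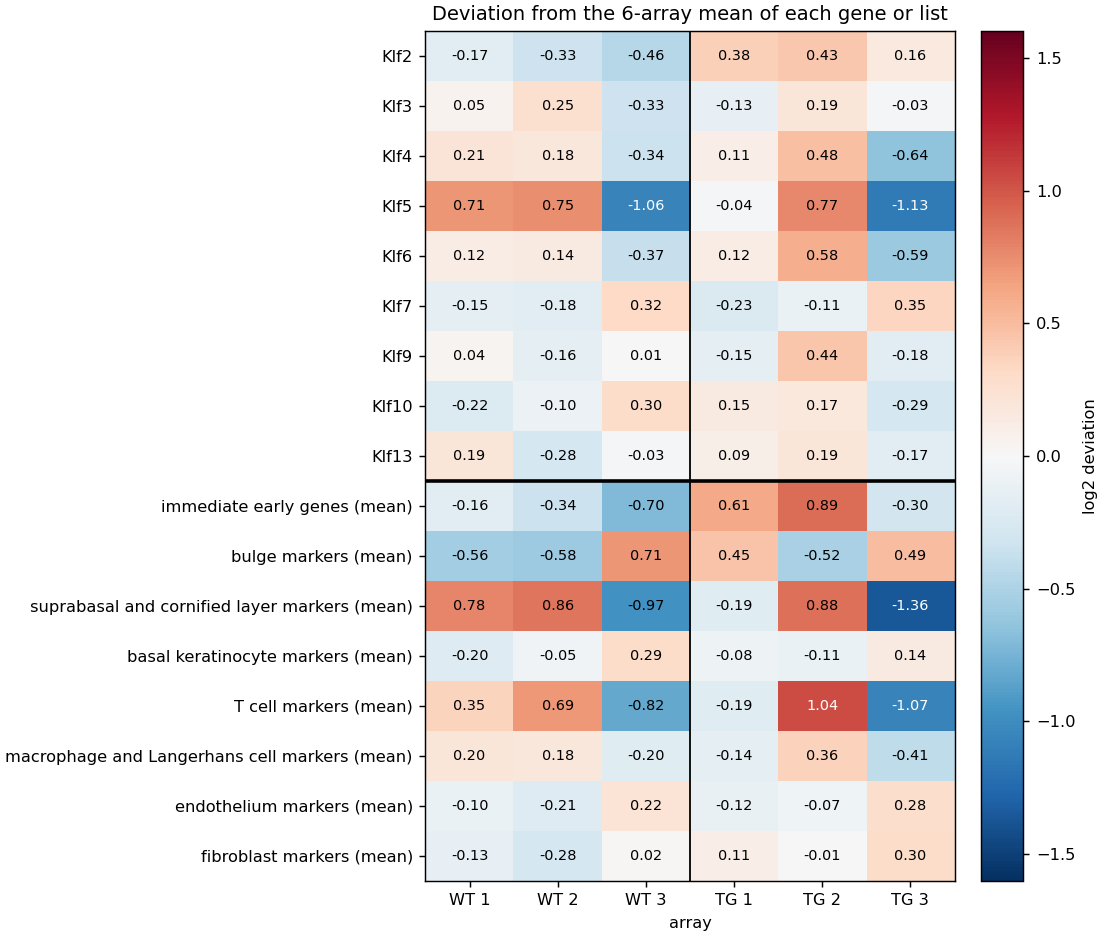
Deviation of each member and of the mean of each marker list (rows) from its mean over 6 arrays, in log2 units, on each array (columns). Klf3, Klf4, Klf5, Klf6 and Klf13 are negative on WT array 3 and TG array 3, Klf3 and Klf13 by less. So are the suprabasal, T cell, immediate early, and macrophage and Langerhans lists. Klf2 is negative on all WT arrays and positive on all TG arrays.

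Marker lists of cells that the sort could hold shifted between the same arrays. The mean of 22 suprabasal and cornified layer markers was -1.79 away from that of the other WT arrays on WT array 3, and -1.70 away on TG array 3. It was 9.55 on TG array 1, against 10.62 on TG array 2. These are the layers in which Klf4 protein is known to act. For the 12 measured T cell markers these shifts were -1.34 (WT) and -1.50 (TG), and for the 19 bulge markers they were 1.28 and 0.53. The bulge mean was 10.50 on TG array 1 and 10.54 on TG array 3, against 9.53 on TG array 2, so in TG it was not high on array 3 alone. Fewer cells of a type and less RNA per cell cannot be told apart in such bulk samples, and the part of either list in the Klf4, Klf5 and Klf6 values was not tested.

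For Klf2 the shift of array 3 was smaller, at -0.21 in WT and -0.24 in TG. The mean of the 12 endothelium markers ran from 5.69 to 6.12 in WT and from 5.78 to 6.19 in TG. Their median difference was 0.062, with 7 of 12 above 0 and 0 of the 12 without overlap. The endothelial gene Cdh5 read between 5.53 and 6.85 in WT and between 5.70 and 6.95 in TG. The T cell list ran from 7.07 to 8.58 in WT and from 6.82 to 8.93 in TG, with a median difference of -0.14 and 2 of 12 markers above 0. The macrophage and Langerhans cell list ran from 6.94 to 7.34 in WT and from 6.73 to 7.50 in TG, with a median difference of -0.13. The fibroblast list ran from 6.23 to 6.53 in WT and from 6.50 to 6.81 in TG, with 8 of 10 above 0. Its median difference was 0.25, and 1 marker, Pdgfra, was higher without overlap. Over all genes 3.99% were higher without overlap and 3.21% lower. The bulge list had a median difference of 0.29, with 17 of 19 above 0 and 0 without overlap. For the suprabasal and cornified layer list the median was -0.41, with 18 of 22 below 0 and 0 without overlap. Over all genes 47.9% lay above 0. The part of any of these lists in the Klf2 difference was not tested.

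Klf3, a repressor that works with the co-repressor CtBP and a known target of Klf1 in blood cells, read 10.57, 10.77 and 10.19 in WT and 10.39, 10.71 and 10.49 in TG, arrays 1 to 3. The TG values lay inside the WT range. The difference was 0.019 ± 0.19 (SE), with a 95% interval from -0.43 to 0.47.

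Klf9, Klf10 and Klf13 belong to the branch of the family that recruits the co-repressor Sin3. Klf9, which glucocorticoids induce in keratinocytes, read 7.90, 7.69 and 7.86 in WT and 7.70, 8.29 and 7.67 in TG. TG array 2 stood above the other 5 arrays, and the remaining TG arrays lay close to the lowest WT value. The difference was 0.072 ± 0.20 (SE), with a 95% interval from -0.40 to 0.54. Klf10, first described as a gene induced early by TGF-beta, read 8.67, 8.79 and 9.18 in WT and 9.03, 9.05 and 8.60 in TG. The array numbered 3 was the highest in WT and the lowest in TG, so the differences by number were 0.37, 0.27 and -0.58. In the unpaired fit the difference between genotypes was 0.016 ± 0.20 (SE), and without both arrays numbered 3 it was 0.32 (adjusted p = 0.783 in limma). Klf13, known from T lymphocytes and heart, read 8.43, 7.96 and 8.21 in WT and 8.33, 8.43 and 8.06 in TG, with a difference of 0.073 ± 0.17 (SE). Its lowest and highest values overlapped between genotypes.

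**Figure D3:**
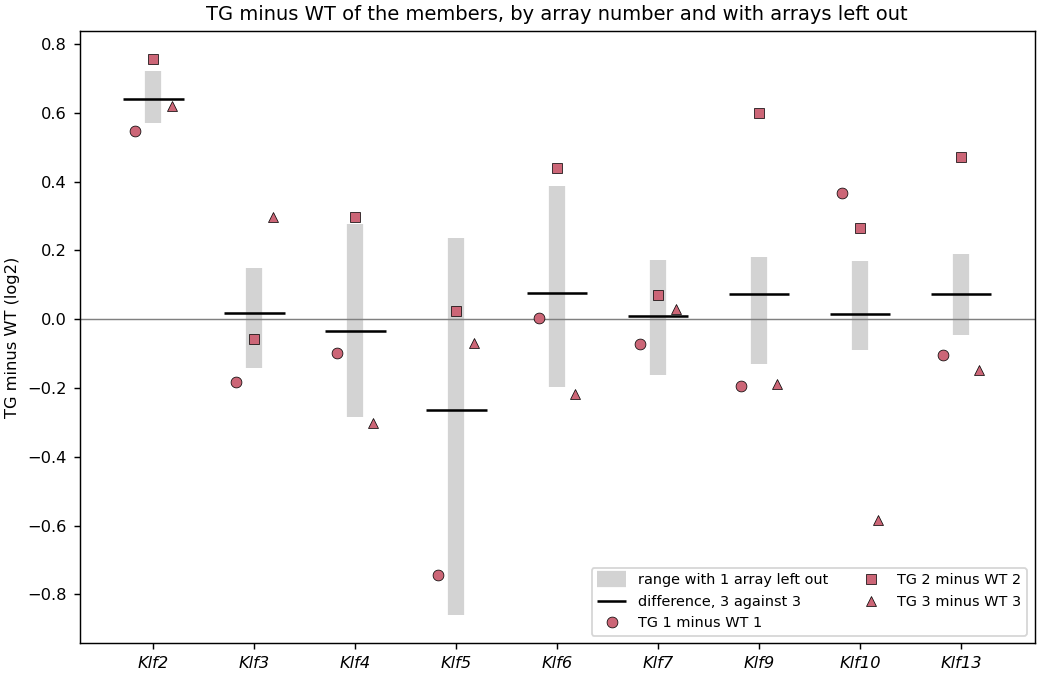
TG minus WT difference of each member in log2 units (y axis). Points are the differences between arrays of the same number, black lines the difference of the means over 3 against 3 arrays, and grey bars the range when 1 array at a time is left out. Klf2 lies between 0.57 and 0.72 when 1 array is left out, and the bars of the other 8 members cross 0.

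Among the 8 other KLF genes, 0 passed the adjusted threshold, 0 had an unadjusted p under 0.05 in limma, and the median difference was 0.061 with 5 above 0. Klf16 was the 1 gene without overlap, with TG above WT, beside 3.99% of all genes. It read 7.48, 7.49 and 7.37 in WT and 7.83, 7.82 and 7.50 in TG, a difference of 0.27 ± 0.14 (SE) with a gap of 0.0035 between genotypes. Klf12 had the largest difference in size, -0.79 ± 0.64 (SE), with WT values from 6.08 to 7.41 and TG values from 4.98 to 7.28. Paired by number, its TG minus WT values were -1.53, -0.13 and -0.70. TG lay below WT for each number in 16.5% of all genes. With arrays blocked by their number its standard error was 0.26 (unadjusted p = 0.0274, adjusted p = 0.557 in limma). Klf15, a glucocorticoid-induced metabolic regulator, differed by 0.19 ± 0.20, and Klf11, a Sin3-binding relative of Klf10, by 0.14 ± 0.19 (SE). Klf8, a repressor close to Klf3, differed by 0.098 ± 0.48. Array 3 stood -1.01 from the other arrays in WT and -1.33 in TG. The erythroid factor Klf1 differed by 0.023 ± 0.18, Klf14 by -0.050 ± 0.19 and Klf17 by -0.12 ± 0.15 (SE).

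Of 9 SP genes, which encode the sister family, 8 were measured, 0 passed and 0 were without overlap. The median difference was -0.069, with 2 above 0. Sp5, a Wnt target, differed by 0.25 ± 0.14 and the ubiquitous Sp3 by 0.17 ± 0.13 (SE). Sp6, which acts in tooth and limb epithelium, differed by -0.37 ± 0.32, and array 3 stood -0.68 from the others in WT and -0.76 in TG. Sp1 differed by -0.044 ± 0.12, Sp4 by -0.095 ± 0.19, Sp7 by -0.13 ± 0.22, Sp8 by -0.00041 ± 0.12 and Sp9 by -0.17 ± 0.16 (SE). Paired by number, TG lay above WT each time for Sp3 and Sp5, and below each time for Sp6, Sp7 and Sp9. Over all genes 14.6% lay above for each number and 16.5% below.

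**Figure D4:**
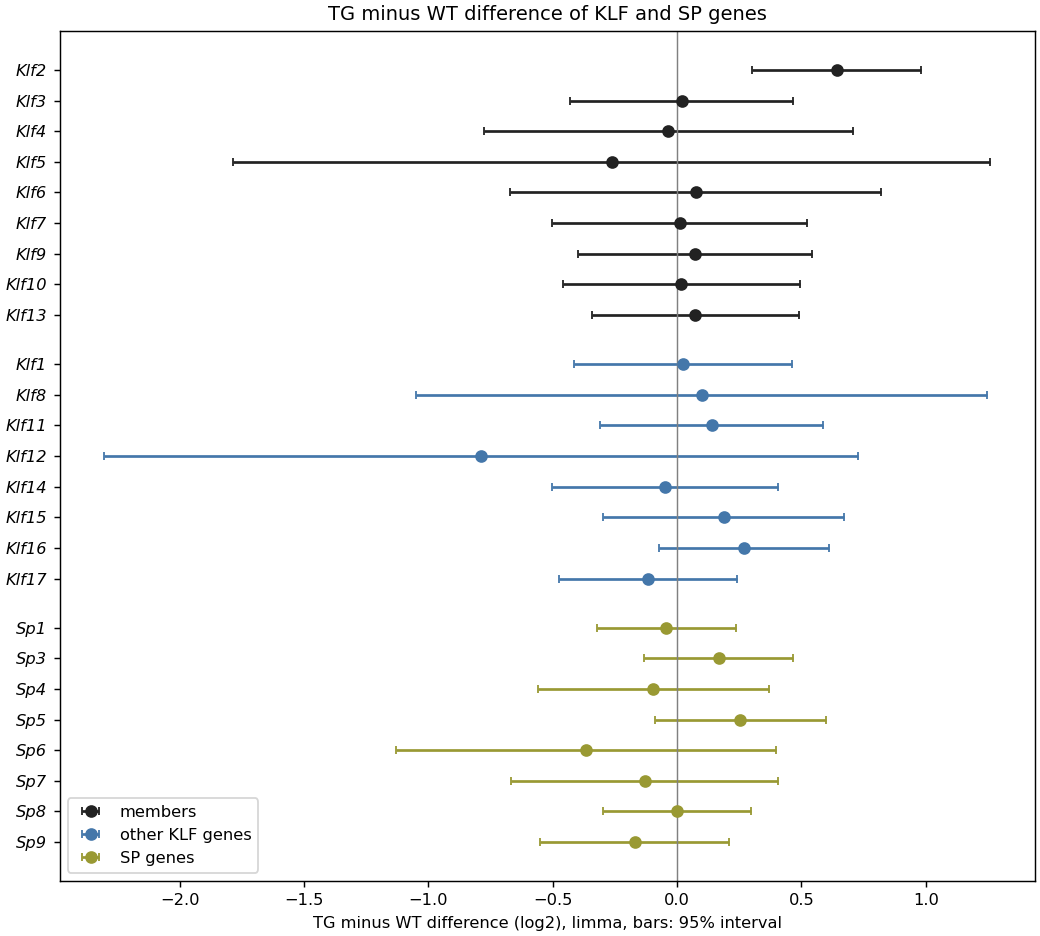
TG minus WT difference in log2 units (x axis) of the 9 members, the 8 other KLF genes and 8 SP genes (y axis). Points are limma estimates from 3 WT and 3 TG arrays and bars their 95% intervals. The interval of Klf2 lies above 0, at 0.30 to 0.98, before any adjustment for the number of genes, and the others include 0.

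The genes around the family were read from lists. Of 17 partners, co-repressors and ubiquitin ligases, 0 passed the adjusted threshold, 12 lay above 0 and the median difference was 0.11. Without overlap, 1 was higher in TG (Fhl2) and 1 lower (Sin3a, the co-repressor gene, at -0.11 ± 0.12 SE, named after its values were seen). Over all genes 3.99% were higher without overlap and 3.21% lower. Fhl2, encoding a LIM-domain cofactor, read 7.82, 7.11 and 6.69 in WT and 8.96, 7.83 and 8.44 in TG, without overlap and with a difference of 1.20 ± 0.37 (SE, unadjusted p = 0.0156 in limma). Ctbp2, encoding the co-repressor bound by Klf3, differed by 0.55 ± 0.23, the histone deacetylase gene Hdac1 by 0.24 ± 0.17 and the acetyltransferase gene Crebbp by -0.23 ± 0.13 (SE).

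Of 18 measured genes upstream of the KLF genes, 0 passed, 7 lay above 0 and 0 were without overlap, with a median of -0.033. The transcription factor genes Mef2d and Mef2a of the MEF2 family differed by -0.29 ± 0.15 and -0.36 ± 0.27 (SE). Elk1, a partner of serum response factor, differed by -0.21 ± 0.13 and the clock gene Arntl by -0.45 ± 0.37 (SE). Of 17 measured target genes, 0 passed, 10 lay above 0 and the median was 0.040. Without overlap, 1 was higher in TG (Ccnd1) and 1 lower (Lama3), beside 3.99% and 3.21% of all genes. Ccnd1, encoding cyclin D1, differed by 0.29 ± 0.16, and Lama3, a laminin gene, by -0.29 ± 0.14 (SE). For Ccnd1 the lowest TG value, 10.260, was close to the highest WT value, 10.254. Slc2a4 differed by 0.52 ± 0.24 and Smad7, an inhibitor of TGF-beta signalling, by 0.70 ± 0.39 (SE). Of 11 glucocorticoid response genes, 0 passed and 10 lay above 0, with a median of 0.23, where 47.9% of all genes lay above 0. Of these 11, 1 (Cebpd) was higher without overlap. Cebpd read 6.94, 6.78 and 6.92 in WT and 7.95, 7.61 and 7.18 in TG, a difference of 0.70 ± 0.21 (SE). Errfi1 differed by 0.55 ± 0.37, Dusp1 by 0.53 ± 0.41 and Sgk1 by 0.34 ± 0.27 (SE).

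Immediate early genes, which cells induce within minutes of a stimulus or of tissue dissociation, were listed without any KLF gene. Of 30 measured, 0 passed the adjusted threshold, 29 lay above 0 and 11 had all TG arrays above all WT arrays, with a median of 0.76. Over all genes 47.9% lay above 0 and 3.99% had all TG above all WT arrays. Csrnp1, Jun, Fosb and Nr4a1 differed by 1.85 ± 0.29, 1.21 ± 0.24, 1.38 ± 0.29 and 2.02 ± 0.48 (SE). Klf2, Klf4, Klf6 and Klf10 are often counted with such genes. Their differences were 0.64, -0.035, 0.075 and 0.016. By these estimates Klf2 lay near the list median and the others near the median of all genes. The 95% interval of Klf6, from -0.67 to 0.82, held both medians. Without both arrays numbered 3 the differences were 0.65, 0.099, 0.22 and 0.32, beside a list median of 0.93. The listed genes themselves ran widely, from -0.0045 to 2.02. The shift of the list mean on array 3 was -0.45 in WT and -1.05 in TG. It was -0.54 and -0.94 for Klf4 and -0.50 and -0.94 for Klf6. For Klf2 it was -0.21 and -0.24, and for Klf10 0.46 and -0.44. The part of the list in the values of these members was not tested.

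For members whose highest and lowest arrays lay at least 1 apart, the genes with the most similar centred profile over the 6 arrays were sought. Members and genes with Gm, Rik, Olfr, Mir or Vmn names were left out of this search. Among the genes searched, Pgm2l1 was nearest to both Klf4 and Klf6, with root mean square differences of 0.036 and 0.055. The median over the genes searched was 0.40 for each. Commd8 followed for Klf4 at 0.039, and Il12rb1 for Klf6 at 0.065. Scin and Efemp1 were nearest to Klf5, at 0.079 and 0.083 beside a median of 0.81. These genes too had their lowest values on the arrays numbered 3, which follows from how they were chosen. Nothing on shared control is drawn from 6 arrays.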

How the data were processed

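RNA of 6 sorted samples was measured on Affymetrix Mouse Gene 2.0 ST arrays. The values are the authors' deposited log2 expression values, 1 per array and feature. Transcriptome Analysis Console and Affymetrix Expression Console 1.4.1 appear, with no role, in the submitters' processing notes. How probes were summarised and arrays scaled is not given in the sources used here, and scanner intensities were not used. Of 41345 features, 23521 had 1 symbol, 1814 several and 16010 none, and the brightest one-symbol feature per gene gave 22180 genes.

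TG was compared with WT in R 4.3.3 by limma 3.58.1 (eBayes after lmFit, group only, two-sided, Benjamini-Hochberg over all genes, threshold 0.05), and the fit was tested on simulated data. No filter on low values or further scaling was applied. The number of arrays limits the precision. Alternatives were quantile normalization, median centring, a level filter, feature averaging, all features, no moderation, array weights, a replicate block and left-out arrays.

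The members and lists were chosen with earlier results of these data known, and lists are described by counts and medians with no set test. All KLF and SP genes were named whatever their p, with up to 4 genes of smallest p from each list described and the 2 nearest profiles of members spanning at least 1 log2. Markers were given as list means, with the defining markers Cd34, Krt14, Cd3e and Cdh5 as single genes. Both genotypes carry array numbers 1 to 3. Deviations from genotype means correlated over genes at 0.20, 0.67 and 0.74 between arrays of equal number, each above 0.1, so the numbers were taken as pairs in the block fit. Unlike numbers exceeded 0.1 too, WT array 1 with TG array 2 at 0.50 and WT array 2 with TG array 1 at 0.17, so the pairing of number 1 is weak and rests on the data alone. Promoter windows are from RefSeq on GRCm38.p6.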

Additional observations from a re-analysis of the deposited data

How the results depend on the processing

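Klf2 kept its direction in all 17 alternatives, from 0.57 to 0.72, and did not pass the threshold in any of them (lowest adjusted p = 0.195 in limma). No member passed in any alternative. The count of genes past the threshold, 1 (Pla2g2a) over 22180 genes, was 0 without moderation, without both arrays numbered 2 and without both numbered 3. With 1 array left out it ran from 0 to 1, and was 0 without TG array 1. The count of members with all TG above all WT arrays was 2 without both arrays numbered 3, where Klf10 joined Klf2. With the replicate block no call of a member changed, with Klf2 at 0.64 and a median difference of 0.019.

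Differences near 0 turned sign. With quantile normalization Klf7 was at -0.0068 and Klf10 at -0.012. With array weights Klf3 was at -0.20 and Klf7 at -0.042. Without both arrays numbered 1 Klf10 was at -0.16. Without both numbered 2 Klf6 was at -0.11, Klf7 at -0.021, Klf9 at -0.19, Klf10 at -0.11 and Klf13 at -0.13. Without both numbered 3 Klf3 was at -0.12, Klf4 at 0.099 and Klf7 at -0.00076. With 1 array left out the ranges were -0.14 to 0.15 for Klf3, -0.28 to 0.28 for Klf4, -0.86 to 0.24 for Klf5, -0.20 to 0.39 for Klf6, -0.16 to 0.17 for Klf7, -0.13 to 0.18 for Klf9, -0.090 to 0.17 for Klf10 and -0.047 to 0.19 for Klf13. The cause was not tested. With 3 arrays a genotype and no detection value, small changes of low genes are not resolved.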
